A study of Mus musculus with 13 samples.

Results

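The clustered protocadherin locus was examined as a window of 1.2 Mb on mouse build mm9, chr18:36900001-38100000, with edges set by position. Its members and the ways of grouping peaks were chosen with earlier results of these data known. Its alpha cluster was set at chr18:37080001-37360000, its beta cluster at chr18:37400001-37700000 and its gamma cluster at chr18:37780001-38020000. The stretches between and beside the clusters make up the rest of the window. A peak belonged to the stretch that held its midpoint, and 459 of the 185431 peaks in 8 lists fell in the window. The remainder of chromosome 18, 86564499 bp between the outermost peaks, held 5624 peaks and served as the comparison.

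Clustered protocadherins are cell-surface adhesion proteins, best known for giving single neurons distinct identities. In the alpha and gamma clusters each variable first exon has a promoter of its own and is spliced to exons shared by the cluster, whereas each beta gene is a single exon. H3K9me3 is laid down by methyltransferases such as Setdb1 and marks heterochromatin and silenced repeats. H3K27me3 is laid down by Polycomb repressive complex 2 and marks silent developmental genes in embryonic stem cells. Setdb1 is known to bind this locus in neurons.

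The cells were J1 mouse embryonic stem cells with an inducible Setdb1 knockout, grown without feeders in medium with LIF. Ablation was induced with 2.5 µM tamoxifen, and the control cells carried the same inducible allele without tamoxifen. The treatment protocol names DMSO as the solvent control, while the treatment entries of replicates 2 to 4 read none, so the controls are called untreated here. The sources used here do not state what drives the recombinase, the time in tamoxifen or the number of clones. Lists of peaks came from 4 H3K9me3 libraries of untreated cells, 2 H3K27me3 libraries of untreated cells and 2 H3K27me3 libraries of tamoxifen-treated cells. The 5 inputs were not analysed here, and neither was H3K9me3 after tamoxifen. The antibody entry of H3K9me3 replicate 4 reads none, and its group was taken from its title.

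A list gives the start and end of each peak and nothing else, so read depth and peak height are unknown. Neither the loss of Setdb1 nor the identity of the cells by marker genes could be checked from such lists. Whole lists held between 18037 and 42725 H3K9me3 peaks and between 7041 and 22265 H3K27me3 peaks. For replicate 1 of each group the submitters' processing notes give MACS2 2.0.10, and for all later replicates they give MACS2 2.1.0. Comparisons of tamoxifen are therefore also given within each MACS2 version. H3K9me3 replicate 1 had the fewest and widest peaks of its group, on the rest of chromosome 18 as in the window, and results that rest on it are given without it. Nothing in the labels says that replicates came from separate cultures, so differences between libraries may be technical. Each p-value ranks the observed difference among rearrangements of these same libraries and does not measure their spread.

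A RefSeq gene table of GRCm38.p6 placed 58 genes in the 3 clusters. Its coordinates follow another build, so it gave names and order only and no peak was assigned to a gene. The alpha cluster runs from Pcdha1 to Pcdhac2 and has 14 genes. Its last members are Pcdhac1 and Pcdhac2, C-type isoforms whose promoters are regulated differently from those of the alternate isoforms. Beta runs from Pcdhb1 to Pcdhb22 and has 22 genes. Gamma runs from Pcdhga1 to Pcdhgc5 and has 22 genes, of which 1 is a pseudogene, with Pcdhgc3 and Pcdhgc5 among its C-type members at the end. Before Pcdha1 the table lists the protein-coding gene Zmat2, the vault RNA gene Vaultrc5 and the pseudogene Gm6756. Slc25a2, a mitochondrial carrier, and Taf7, a subunit of the general transcription factor TFIID, lie between Pcdhb22 and Pcdhga1, and Diaph1, a formin, follows gamma.

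H3K9me3 peaks were more frequent in the window than on the rest of chromosome 18 in all 4 libraries. Replicates 1 to 4 placed 17, 38, 80 and 41 peaks in the window. Expressed per Mb this was 14.2, 31.7, 66.7 and 34.2 peaks, against 6.75, 11.4, 15.9 and 12.6 on the rest of the chromosome. Every library was thus higher in the window, by ratios between 2.1 and 4.2. The mean log2 ratio was 1.51 ± 0.41 (SD, n = 4), and the two-sided exact sign-flip permutation test gave p = 0.125, the smallest value that 4 libraries allow.

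The share of bases under H3K9me3 peaks showed the same order. It was 5.52, 5.87, 11.2 and 6.71% of the window in replicates 1 to 4, against 1.78, 1.40, 2.04 and 1.61% elsewhere on the chromosome. The lowest library in the window was still above the highest value outside it. The difference was 5.61 ± 2.43 percentage points (SD, n = 4, exact sign-flip p = 0.125). With alpha, beta and gamma alone, without the stretches around them, the difference was 2.63 percentage points.

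Peaks in the window were closer together, but over whole lists their median width was not higher in every library. The median gap between neighbouring midpoints was 63383.5, 10005, 7037.5 and 8981.5 bp in replicates 1 to 4, against 73545, 34734, 25817.8 and 34546.5 bp on the rest of the chromosome. The gap was shorter in the window in 4 of 4 libraries (exact sign-flip p = 0.125). Replicate 1 stood apart, with a gap in the window that was 0.862 of its gap elsewhere, where the other 3 libraries had 0.260 to 0.288. The median width was 2799, 604.5, 819.5 and 835 bp in the window and 1797, 827, 846.5 and 876 bp outside it. Peaks of replicate 1 were wider in the window and those of replicates 2 to 4 narrower, so the mean difference of 178 ± 557 bp (SD, n = 4, exact sign-flip p = 1) was smaller than the spread. Without replicate 1 it was -96.8 bp. Among peaks of at least 500 bp it was 363 bp (exact sign-flip p = 0.125), so the result on width depended on the narrow peaks.

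**Figure D1:**
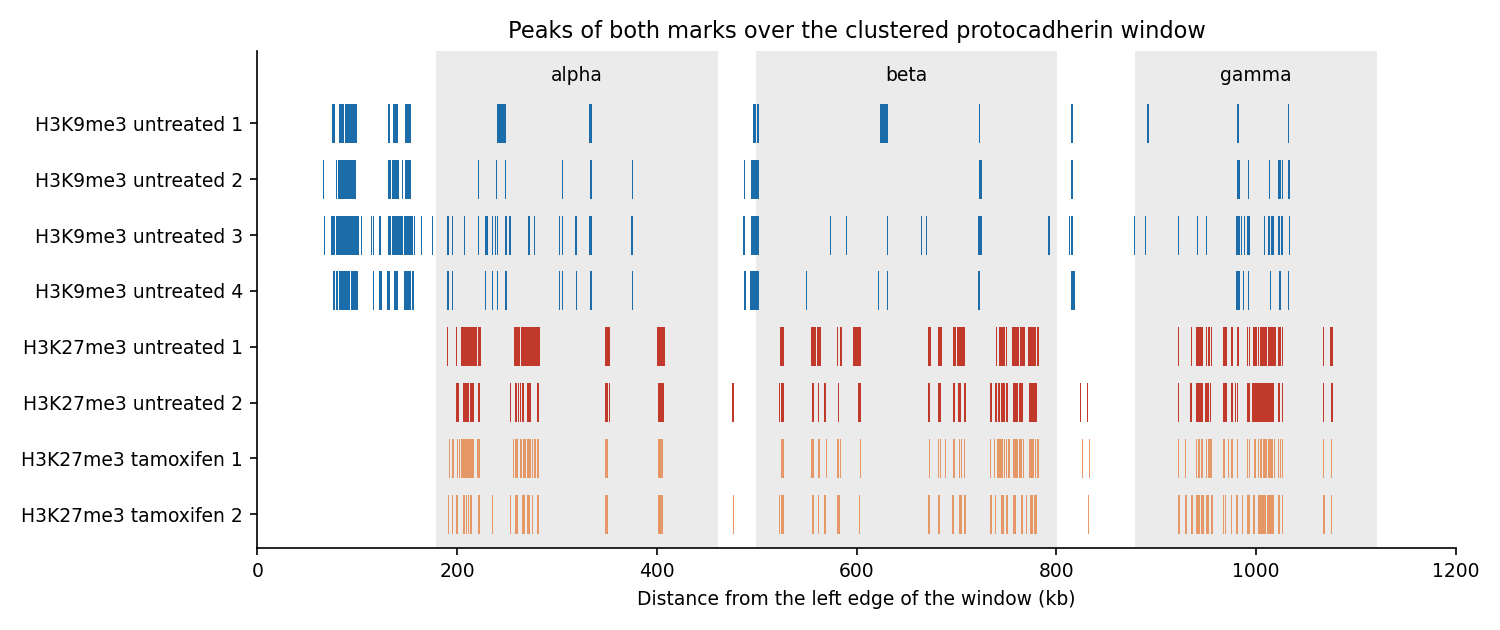
Peaks of the 8 libraries over the window, with the distance from its left edge in kb on the x axis and 1 row for each library; each block is a peak at its true width, and grey bands mark the alpha, beta and gamma clusters. H3K9me3 peaks (blue) are dense before alpha, where no H3K27me3 library (red, untreated; orange, tamoxifen) has a peak, and most H3K27me3 peaks lie in the clusters.

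Within the window H3K9me3 was densest in the 180 kb before alpha. Replicates 1 to 4 had 6, 13, 16 and 14 peaks there, covering 17.7, 21.2, 32.3 and 22.8% of the bases. The mean was 23.5 ± 6.23% (SD, n = 4), between 9.96 and 15.8 times the share on the rest of the chromosome. None of the 4 H3K27me3 libraries had a peak in this stretch. The libraries lay closer to each other here than in alpha, since the log2 ratio of peaks per Mb over the rest of the chromosome was 2.52 ± 0.16 (SD, n = 4), against 1.41 ± 0.98 there.

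The clusters themselves held fewer H3K9me3 bases. Alpha had 2, 9, 24 and 11 peaks in replicates 1 to 4, covering 4.48, 1.99, 9.59 and 3.96% of its 280 kb. Beta had 4, 4, 15 and 7 peaks covering 3.69, 2.12, 4.58 and 2.51% of its bases. Gamma had 3, 8, 18 and 6 peaks covering 2.37, 4.46, 9.64 and 3.32% of its 240 kb. Replicate 3 was the highest library in each cluster, and the ranges of the 3 clusters overlapped. Peaks per Mb differed by 16.1 between alpha and beta, by 4.61 between alpha and gamma and by -11.5 between beta and gamma, with exact sign-flip p of 0.25, 0.5 and 0.25 and 0.375, 0.5 and 0.375 after adjustment over 3 pairs. Without replicate 3 the differences were 9.52, 2.58 and -6.94, without replicate 4 that between alpha and gamma was 1.39, and without replicate 1 it was 7.94. Each cluster was above the rest of the chromosome in peaks per Mb and in covered share in 4 of 4 libraries (exact sign-flip p = 0.125 for each). The lowest ratios of peaks per Mb were 1.06 in alpha (replicate 1, 2 peaks), 1.17 in beta (replicate 2, 4 peaks) and 1.85 in gamma (replicate 1, 3 peaks). The first 2 are close to equality.

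Both short stretches between clusters carried H3K9me3 as well. From alpha to beta, over 40 kb, the peaks of replicates 1 to 4 covered 7.81, 16.7, 18.6 and 20.5% of the bases. From beta to gamma, over 80 kb, they covered 2.34, 3.67, 6.35 and 5.80%. After gamma, in the last 80 kb of the window, no library of either mark had a peak.

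**Figure D2:**
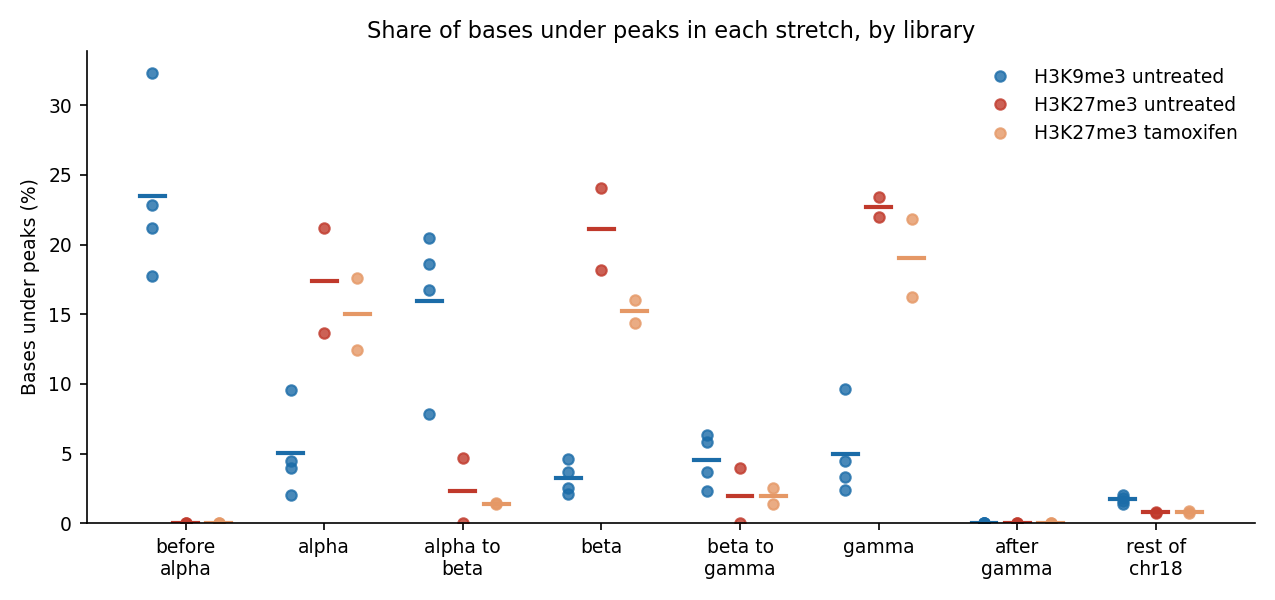
Share of bases under peaks (y axis, %) in each stretch of the window and on the rest of chromosome 18; each point is a library and each bar the mean of its group (H3K9me3 untreated, n = 4; H3K27me3 untreated and tamoxifen, n = 2 each). H3K9me3 is highest before alpha, at 17.7 to 32.3%, and H3K27me3 is 0 there and between 12.5 and 24.1% in the clusters.

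Touching or overlapping peaks of the 4 H3K9me3 libraries were joined to regions, and a region counted as held by each library with a peak over 1 bp or more of it. The window had 79 such regions, of which 40 were held by 1 library, 16 by 2, 10 by 3 and 13 by all 4. Over the whole genome 20.7% of regions were held by all 4, and on the rest of chromosome 18 362 of 1686 were (21.5%). The 13 regions of the window are 16.5%, below both backgrounds. Of the 40 regions held by a single library, 35 came from replicate 3, the longest list.

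The stretch before alpha held 5 of the 13 regions. The widest was chr18:36978676-37001345, 22670 bp, of which replicates 1 to 4 covered 74.7, 85.6, 100 and 83.7%. Close to full coverage in each library was also seen at chr18:37046650-37053815, with 82.4, 87.6, 94.6 and 92.3%. At chr18:37034770-37045594 the libraries covered 40.8, 65.7, 99.8 and 46.8%, and at chr18:37030092-37033965 they covered 49.1, 84.0, 86.7 and 78.0%. The leftmost region, chr18:36973930-36977339, was covered to 82.1, 10.1, 96.5 and 39.9%, so replicate 2 held little of it.

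The clusters held 6 of the 13 regions, 2 in each. In alpha, replicate 1 covered 88.5% of chr18:37139214-37149783 and replicates 2 to 4 covered 16.7, 34.8 and 24.4%. The second region of alpha, chr18:37232094-37235335, had 98.0, 57.2, 83.8 and 80.9%. In beta, chr18:37523624-37531568 was covered to 95.4% in replicate 1 and to 2.97, 11.1 and 7.93% in the others. The widest regions of alpha and beta thus took their width from replicate 1. The second region of beta, chr18:37621801-37625438, had 43.5, 83.5, 100 and 56.1%.

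Between alpha and beta, across the left edge of beta, chr18:37393769-37402778 had 52.9, 92.6, 88.1 and 100% in replicates 1 to 4. Between beta and gamma, chr18:37714230-37719108 had 38.4, 60.1, 46.8 and 95.2%. Gamma held chr18:37879951-37884061, covered to 52.9, 68.6, 100 and 86.4%, and chr18:37931814-37933887, covered to 82.4, 77.3, 45.1 and 26.4%. Only the first of these gamma regions, among all 13, overlapped a region with H3K27me3 in both untreated libraries.

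H3K27me3 was concentrated in the window more strongly than H3K9me3. The untreated libraries had 51 and 66 peaks in it and the tamoxifen libraries 97 and 69. These peaks covered 15.4 and 12.8% of the window without tamoxifen and 11.5 and 11.1% with it, against 0.822, 0.762, 0.739 and 0.873% of the rest of the chromosome. All 4 libraries were thus higher in the window, by ratios of the covered share between 12.7 and 18.7. Peaks per Mb were higher by ratios between 9.59 and 16.2, with a mean log2 ratio of 3.71 ± 0.35 (SD, n = 4, exact sign-flip p = 0.125), and within either condition, with 2 libraries, the test can give no p below 0.5.

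A large part of the H3K27me3 of chromosome 18 lay in this window. It held 20.6 and 18.9% of the chromosome's H3K27me3 bases in the untreated libraries and 17.7 and 15.0% in the tamoxifen libraries. The corresponding share of H3K9me3 bases was 4.12, 5.49, 7.07 and 5.45%. The median gap between H3K27me3 peaks in the window was 7850.5 and 6515.5 bp without tamoxifen and 3386.5 and 6012.75 bp with it, where the rest of the chromosome had 28796.5 to 155742 bp.

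Chromosome 18 was also laid out as 72 windows of 1.2 Mb, of which the protocadherin window was 1. The grid was aligned to the edges of the protocadherin window, and on other autosomes it began at the first peak. Other dense places could therefore be cut across windows, and the effect of this on the ranks was not tested. For H3K27me3 the protocadherin window ranked first in each of the 4 libraries, in number of peaks and in covered share. The highest covered share of any other window was 4.13, 4.30, 3.70 and 4.80% in the 4 libraries. For H3K9me3 it ranked 4, 3, 1 and 3 by covered share in replicates 1 to 4 and 7, 4, 1 and 5 by number of peaks. Over 2001 such windows on the autosomes it ranked 2, 2, 2 and 9 for H3K27me3 coverage and 83, 38, 10 and 43 for H3K9me3 coverage. The locus was therefore near the top of the autosomes for H3K27me3 in every list, and for H3K9me3 its place depended on the library.

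**Figure D3:**
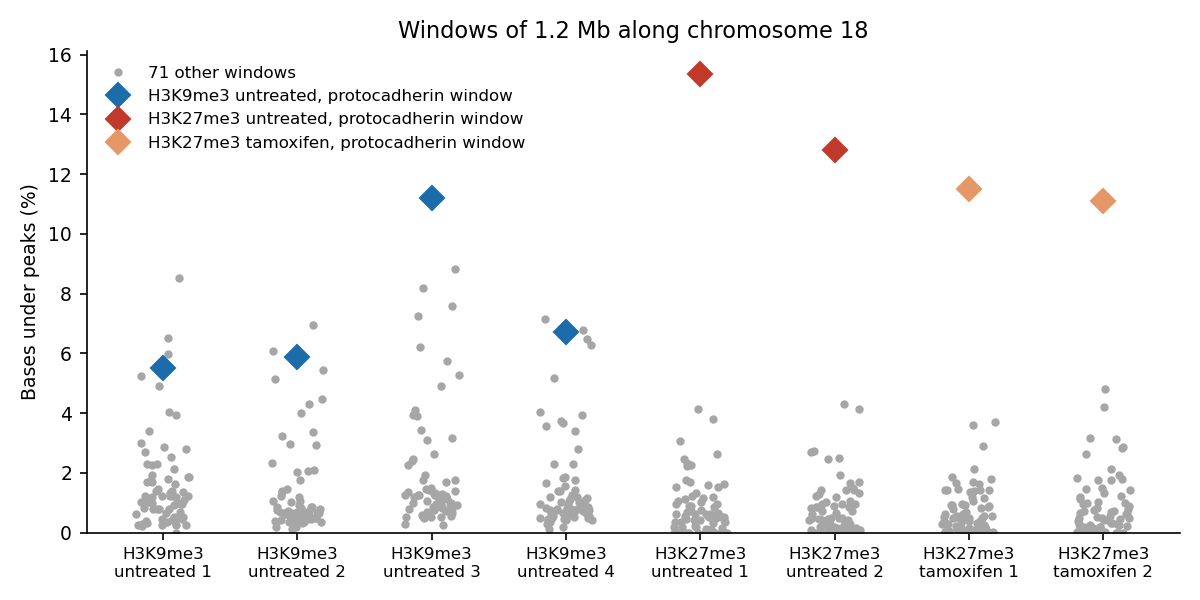
Share of bases under peaks (y axis, %) in 72 windows of 1.2 Mb along chromosome 18, 1 column for each library on the x axis; grey points are the other windows and the coloured diamond is the protocadherin window. The diamond is above every grey point for H3K27me3 in all 4 libraries and for H3K9me3 in replicate 3 alone.

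H3K27me3 was spread over all 3 clusters. Alpha had 9 and 15 peaks in the untreated and 21 and 19 in the tamoxifen libraries, covering 21.2, 13.6, 17.6 and 12.5% of its bases. Beta had 21, 26, 40 and 26 peaks in the same order, covering 24.1, 18.1, 16.02 and 14.4%. Gamma had 21, 17, 33 and 20 peaks, covering 22.0, 23.4, 16.2 and 21.8%. The ranges of covered share overlapped between clusters. Alpha had fewer peaks per Mb than beta and than gamma in 4 of 4 libraries, by 37.0 and 37.6 on average (exact sign-flip p = 0.125 for each, 0.188 after adjustment over 3 pairs). The short stretch from alpha to beta had 0 to 3 H3K27me3 peaks and that from beta to gamma 0 to 5.

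Compared within untreated cells, H3K27me3 covered more of the window than H3K9me3, while the order was opposite outside it. The covered share was 7.32 ± 2.63% (SD, n = 4) for H3K9me3 and 14.1 ± 1.80% (SD, n = 2) for H3K27me3, and the H3K9me3 libraries were all below both H3K27me3 libraries (exact permutation p = 0.133, the smallest that 4 against 2 allows). On the rest of chromosome 18 the values were 1.71 ± 0.27% (SD, n = 4) and 0.79 ± 0.04% (SD, n = 2), with each H3K9me3 library above both others (exact permutation p = 0.133). The 2 marks also split the window. Before alpha and from alpha to beta all 4 H3K9me3 libraries were above both untreated H3K27me3 libraries, and in alpha, beta and gamma all 4 were below (exact permutation p = 0.133 in each of the 5 stretches). With the same number of widest peaks taken from each list, the difference in the window was -8.25 percentage points (-6.77 with whole lists). The marks were precipitated with different antibodies, whose part in these differences was not tested.

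Merging the peaks of the 4 H3K27me3 libraries gave 79 regions in the window. All 4 libraries held 37 of them, which are called kept, while 15.3% of regions over the whole genome were kept. The 37 regions are 46.8%, against 142 of 764 (18.6%) on the rest of the chromosome. Of the kept regions 8 lay in alpha, 15 in beta and 14 in gamma. A further 26 regions were held by 1 library and 12 by other combinations. Kept regions had a median width of 4256 bp in the window and 4428 bp elsewhere on the chromosome.

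The widest H3K27me3 region was chr18:37895781-37919870 in gamma, 24090 bp. The untreated libraries covered 85.02 and 93.9% of it and the tamoxifen libraries 62.4 and 71.3%, so both tamoxifen values were below both untreated ones. In gamma, chr18:37839996-37847416 showed the same order, with 79.6 and 91.8% untreated and 59.6 and 78.5% with tamoxifen. The neighbouring chr18:37848961-37853651 had 67.3 and 74.2% untreated and 62.8 and 64.1% with tamoxifen. Each of these 3 gamma regions thus had lower coverage in both tamoxifen libraries.

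In alpha the widest region was chr18:37157419-37176700, 19282 bp, with 96.3 and 48.5% untreated and 69.4 and 51.6% with tamoxifen. The untreated libraries lay on both sides of the tamoxifen ones. At chr18:37104126-37119723 the values were 98.9 and 62.4% untreated and 82.6 and 39.5% with tamoxifen, and at chr18:37177324-37182499 they were 100 and 47.0% and 72.4 and 48.5%. The groups overlapped at both. Near the right end of alpha, chr18:37299694-37308288 had 100 and 69.8% untreated against 70.3 and 60.1%, and chr18:37247712-37253134 had 100 and 69.8% against 64.9 and 63.9%. Of the 5 alpha regions, this last was the 1 in which the groups did not overlap.

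In beta the order was clearest at chr18:37496749-37504789, 8041 bp, with 100 and 39.4% untreated against 24.5 and 23.2% with tamoxifen. The widest beta region, chr18:37671173-37682436, had 94.3 and 75.2% untreated against 72.8 and 54.3%, and chr18:37655562-37663378 had 94.6 and 66.4% against 65.2 and 34.0%. Neither group overlapped the other in these 3 regions. Coverage at chr18:37639041-37648849 was 66.6 and 76.2% untreated and 75.5 and 32.5% with tamoxifen, where the groups overlapped. The narrower beta regions chr18:37600743-37606181, chr18:37454736-37459483 and chr18:37664026-37668750 had 52.2 to 100% untreated and 32.9 to 65.8% with tamoxifen, and the groups overlapped in the first and the third.

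Fewer bases of the window lay under H3K27me3 peaks after tamoxifen, spread over more peaks. The tamoxifen libraries covered 138.0 and 133.1 kb and the untreated libraries 184.3 and 153.8 kb. Both tamoxifen values were below both untreated ones, with a mean difference of -33.5 kb (135.6 ± 3.47 against 169.1 ± 21.6 kb, SD, n = 2 each, exact permutation p = 0.333, the smallest that 2 against 2 allows). The difference was -46.3 kb between the lists of MACS2 2.0.10 and -20.7 kb between those of 2.1.0. Peak number was 83 ± 19.8 with tamoxifen and 58.5 ± 10.6 without (SD, n = 2 each, exact permutation p = 0.333). It differed by 46 peaks between the lists of MACS2 2.0.10 and by 3 between those of 2.1.0, around the mean of 24.5. The higher number was not particular to the window, since the rest of the chromosome had 447 and 519 peaks with tamoxifen and 227 and 395 without. The window's share of the H3K27me3 peaks of chromosome 18 was 17.8 and 11.7% with tamoxifen and 18.3 and 14.3% without, lower with tamoxifen in both MACS2 versions. With the same number of widest peaks taken from each list, the mean differences were -42.8 kb and 5 peaks.

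Peaks of the tamoxifen libraries were also narrower. The median width in the window was 968 and 1745 bp with tamoxifen and 2591 and 1868 bp without. Peaks of at least 5000 bp numbered 4 and 3 with tamoxifen and 13 and 5 without. The widest peak had 8344 and 8259 bp with tamoxifen, against 15434 and 22616 bp without. Both tamoxifen libraries were below both untreated libraries in each of these 3 measures (exact permutation p = 0.333 for the medians and the counts of wide peaks). Narrower peaks were not particular to the window, since the median width on the rest of chromosome 18 was 744 and 730 bp with tamoxifen and 2592 and 851 bp without (exact permutation p = 0.333). The mean difference was -873 bp in the window and -984.5 bp outside it. Beta and gamma followed in covered bases, with differences of -17.7 and -8.83 kb and groups that did not overlap (exact permutation p = 0.333), and in alpha the difference was -6.63 kb with overlapping groups (exact permutation p = 0.667).

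On the rest of chromosome 18 covered bases did not show this order. Tamoxifen libraries covered 640.1 and 755.8 kb of it and untreated libraries 711.7 and 659.4 kb, with an exact permutation p of 1. The sign differed between MACS2 versions, at -71.6 kb for 2.0.10 and +96.4 kb for 2.1.0. The window's share of the H3K27me3 bases of the chromosome, which compares the window with the rest inside each library, fell by 2.83 percentage points between the lists of MACS2 2.0.10 and by 3.94 between those of 2.1.0. The mean was 16.4 ± 1.95% with tamoxifen and 19.7 ± 1.17% without (SD, n = 2 each, exact permutation p = 0.333). List lengths differed as well, since the rest of the chromosome had 447 and 519 peaks with tamoxifen and 227 and 395 without, and their part in this result was not tested.

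The 37 kept regions gave a comparison on positions held by every H3K27me3 library. They were formed by joining the peaks of these same lists, so the list with the widest peaks can set the width of a region. The comparison is therefore not independent of the narrower tamoxifen peaks described above, and their part in it was not tested. Together the 37 regions span 210.2 kb, of which the untreated libraries covered 86.1 and 67.0% and the tamoxifen libraries 59.4 and 56.3%. In the 142 kept regions of the rest of the chromosome the values were 82.9 and 68.4% untreated and 67.9 and 69.1% with tamoxifen, so the groups overlapped outside the window and not inside it. Window minus rest was 3.16 and -1.46 percentage points in the untreated and -8.46 and -12.7 in the tamoxifen libraries. The mean difference was -11.4 (exact permutation p = 0.333), with -11.6 for the libraries of MACS2 2.0.10 and -11.3 for those of 2.1.0. The same gap was -17.4 percentage points in beta (p = 0.333), -9.08 in gamma and -6.74 in alpha (p = 0.667 for both, exact permutation tests).

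Single kept regions varied. Coverage was lower with tamoxifen in 32 of 37 between the lists of MACS2 2.0.10, in 22 between those of 2.1.0 and in 20 in both, and it was higher in both in 3. The rest of the chromosome gave 111, 73, 58 and 16 of 142 in the same order. In 14 regions both tamoxifen libraries were below both untreated ones, and in 2 both were above. The last 2 counts were 38 and 11 of 142 on the rest of the chromosome. The kept regions of the window held 48 and 49 peaks in the untreated and 72 and 53 in the tamoxifen libraries. In beta both lists of MACS2 2.1.0 held 20, although coverage was lower with tamoxifen. On the rest of the chromosome the kept regions held 169 and 180 peaks without tamoxifen and 223 and 176 with it. A higher number of pieces thus did not go with lower coverage throughout.

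**Figure D4:**
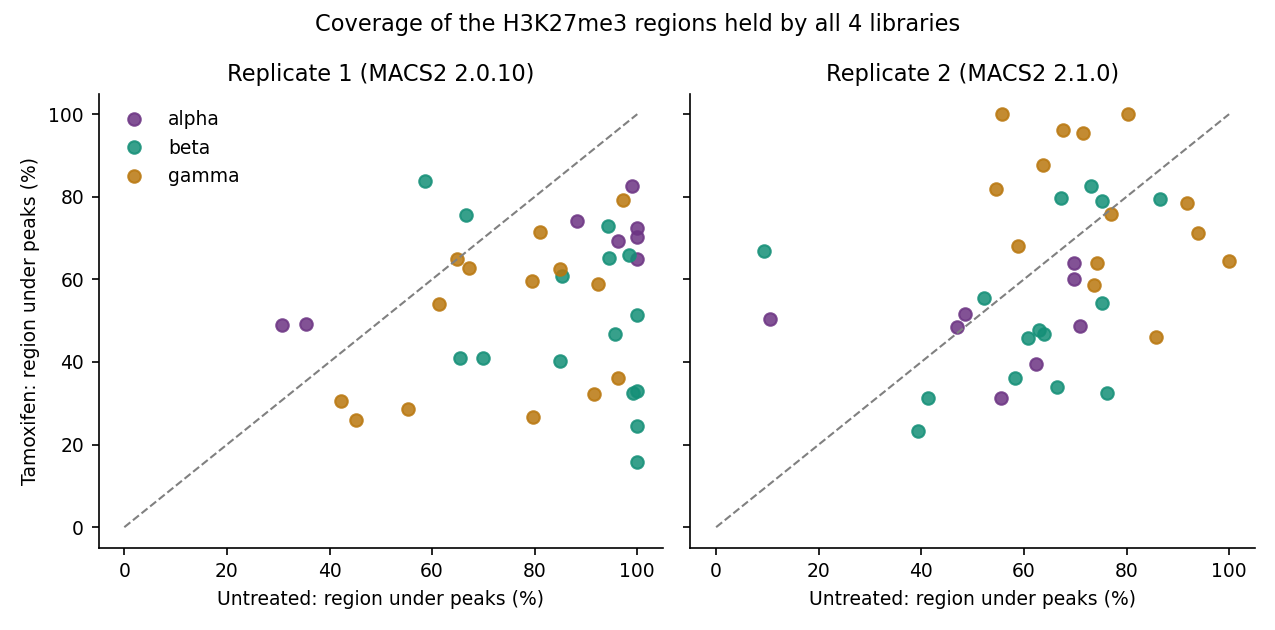
Coverage of the 37 kept H3K27me3 regions in untreated (x axis, % of the region under peaks) and tamoxifen libraries (y axis, same unit); each point is a region, coloured by cluster, with the lists of MACS2 2.0.10 on the left and of 2.1.0 on the right, and the dashed line marks equal coverage. On the left 32 of 37 points lie below the line and on the right 22 do; of 142 kept regions on the rest of chromosome 18, not drawn, 111 and 73 were lower.

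Few regions appeared or disappeared. Called gained when both tamoxifen libraries and no untreated library held them, 3 of the 79 regions of the window were gained (3.80%), beside 18 of 764 (2.36%) on the rest of the chromosome and 2.18% over the genome. They were chr18:37095067-37097195 in alpha, chr18:37562294-37562987 in beta and chr18:37885937-37887441 in gamma. The alpha region was covered to 97.4 and 16.2% by the tamoxifen libraries, the beta region to 100 and 59.2% and the gamma region to 9.70 and 100%. Each was thus nearly whole in 1 tamoxifen library and partial in the other. In the reverse class 1 region was lost, chr18:37594342-37594889 in beta, 548 bp wide, beside 0.281% of regions over the genome. It lay under peaks to 100 and 70.1% in the untreated libraries.

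Bases under peaks of both marks were searched for next. In untreated cells the bases shared by all 4 H3K9me3 and both H3K27me3 libraries came to 0.52 kb in the window and 0 on the rest of chromosome 18. They form a single stretch in gamma, chr18:37881043-37881562, 520 bp, which also lay wholly under peaks of both tamoxifen libraries. Without H3K9me3 replicate 1 the shared bases came to 1.5 kb, again all in gamma, and to 0 on the rest of the chromosome. The added places were chr18:37892028-37892237, 210 bp, and chr18:37923257-37924026, 770 bp. In the window H3K9me3 of all 4 libraries covered 41.2 kb and H3K27me3 of both untreated libraries 123.2 kb, so the shared stretch is 1.26% of the first and 0.422% of the second. H3K27me3 of both untreated libraries made up 10.3% of the window, so the 1.26% is below that level. In gamma 22.2% of the H3K9me3 bases of all 4 libraries lay under H3K27me3 of both untreated libraries, which made up 19.2% of the cluster.

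Gamma was the cluster where H3K9me3 peaks most often lay under H3K27me3. Of the H3K9me3 bases of replicate 1 in gamma, 18.6 to 23.6% lay under peaks of the 4 H3K27me3 libraries, and for replicates 2, 3 and 4 the shares were 47.2 to 58.3, 55.1 to 71.7 and 43.4 to 59.3%. H3K27me3 covered 16.2 to 23.4% of gamma as a whole, so the share of replicate 1 was near that level and the shares of replicates 2 to 4 were above it. In alpha the shares were 0 for replicate 1, 3.21 to 12.9% for replicate 2, 22.1 to 30.7% for replicate 3 and 0 to 13.7% for replicate 4. H3K27me3 covered 12.5 to 21.2% of alpha as a whole. In beta, of which H3K27me3 covered 14.4 to 24.1%, the highest share was 2.33%. On the rest of the chromosome, of which H3K27me3 covered 0.739 to 0.873%, the highest share was 0.210%.

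Among H3K9me3 regions of the window, 17 of 79 overlapped a region with H3K27me3 in both untreated libraries, and they lay in gamma (10) and alpha (7). On the rest of the chromosome 6 of 1686 did. These are 21.5% and 0.356% of the regions. The untreated H3K27me3 libraries covered 15.4 and 12.8% of the window and 0.822 and 0.762% of the rest, and overlap by 1 bp is more frequent where coverage is higher. Whether the counts exceed this difference in coverage was not tested. Of the 17, 6 were held by at least 2 H3K9me3 libraries. All 4 held chr18:37879951-37884061, and replicates 2 to 4 held chr18:37891059-37894178, chr18:37912215-37918061 and chr18:37921984-37925022, each in gamma. Replicates 2 and 3 held chr18:37925186-37927238 in gamma and chr18:37120824-37122394 in alpha. Among regions held by at least 3 libraries, 4 of 5 in gamma overlapped H3K27me3, 4 of 23 in the window and 0 of 667 on the rest of the chromosome.

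The remaining 11 overlapping regions were held by replicate 3 alone. Those in alpha were chr18:37100593-37101023, chr18:37106743-37107735, chr18:37158593-37158858, chr18:37166555-37167224, chr18:37171305-37172642 and chr18:37176900-37177659. Those in gamma were chr18:37822206-37822653, chr18:37841372-37841592, chr18:37850315-37851193, chr18:37870689-37870871 and chr18:37907547-37908742. Overlap of the marks in alpha therefore rested on replicate 3 in 6 of 7 regions, and in gamma in 5 of 10.

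The overlapping gamma regions held by at least 3 libraries lie inside the widest H3K27me3 region and on either side of it. Of chr18:37912215-37918061, which sits inside that region, the untreated H3K27me3 libraries covered 100 and 100% and H3K9me3 replicates 2 to 4 covered 21.2, 86.5 and 12.6%. At chr18:37891059-37894178 H3K27me3 covered 72.6 and 95.4% and H3K9me3 14.8, 100 and 36.8%. At chr18:37921984-37925022 H3K27me3 covered 85.1 and 67.2% and H3K9me3 100, 78.0 and 45.3%. Replicate 1 had no peak at these 3 places. By their order in the gene table the last gamma genes are Pcdhga12, Pcdhgc3, Pcdhgc4 and Pcdhgc5, but no peak could be placed at any of them.

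In the 16 pairs of libraries, 1.45 to 35.3% of the H3K27me3 peaks of the window overlapped an H3K9me3 peak. The distance from each H3K27me3 peak to the nearest H3K9me3 peak, edge to edge and 0 for an overlap, was taken for the 16 pairs of libraries. Its median was between 2644 and 25998 bp in the window, with a middle value of 13426.5 bp, and between 36013 and 113164 bp on the rest of the chromosome, with a middle value of 58878.5 bp. The 2 ranges did not overlap. Such a distance also depends on how dense H3K9me3 peaks are, and per Mb they were 2.1 to 4.2 times as many in the window. The part of this density in the shorter distances was not tested. The distance was shortest against replicate 3, the longest list, and longest against replicate 1, the shortest list. The pairs share libraries, so these ranges are given as a description with no test.

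By cluster, the middle value over the 16 pairs was 6953 bp in gamma, 12754 bp in alpha and 17146 bp in beta. The share of H3K27me3 peaks that overlapped H3K9me3 was 5 to 57.1% in gamma, 0 to 66.7% in alpha and 0 to 3.85% in beta, and 0 to 2.31% on the rest of the chromosome. The alpha values over 15.8% all came from replicate 3. The closest peaks of untreated cells that did not overlap were 180 bp apart, H3K9me3 of replicate 3 at chr18:37879951-37884061 and H3K27me3 of replicate 2 at chr18:37879398-37879770 in gamma.

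**Figure D5:**
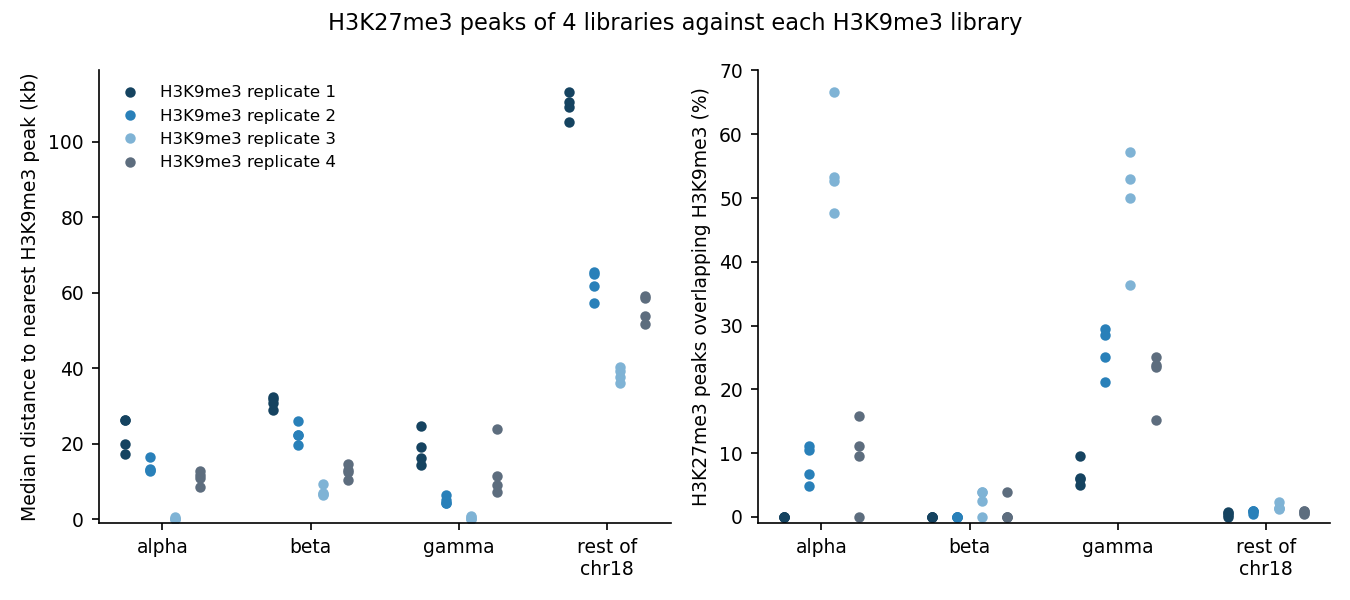
Left, median distance from an H3K27me3 peak to the nearest H3K9me3 peak (y axis, kb); right, share of H3K27me3 peaks that overlap H3K9me3 (y axis, %); x axis, cluster or rest of chromosome 18. Each point is 1 of the 4 H3K27me3 libraries against the H3K9me3 replicate given by its colour, and overlap is high in gamma for replicates 2 to 4 and in alpha for replicate 3.

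Measured from the 13 H3K9me3 regions held by all 4 libraries, the nearest region with H3K27me3 in both untreated libraries was 0 bp away at chr18:37879951-37884061 and 4314 bp away at chr18:37931814-37933887, both in gamma. In alpha the distances were 7635 and 12376 bp and in beta 18834 and 12401 bp. The region between alpha and beta was 19964 bp away and that between beta and gamma 31793 bp. For the 5 regions before alpha the distance ran from 44717 to 121193 bp, above that of the other 8.

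Long stretches held only 1 of the marks or neither, over all libraries of each mark. No H3K27me3 peak was found at chr18:36900001-37090269, 190 kb that include the dense H3K9me3. No H3K9me3 peak was found at chr18:37276010-37386435, 110 kb that span the right end of alpha and include the H3K27me3 region chr18:37299694-37308288. The right end of gamma and beyond, chr18:37937477-38100000, also lacked H3K9me3 in all 4 libraries, and within it H3K27me3 was kept at chr18:37966611-37968606 and chr18:37974265-37977408.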

How the data were processed

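The members and the ways of grouping peaks were chosen with earlier results of these data known. The lists that the authors deposited hold peak positions in bp, 1 list per library, with no score and no counts. The submitters' processing notes name the build mm9, Bowtie 0.12.7, an aligner, and MACS2 2.0.10 or 2.1.0, a peak caller. The sources used here give no calling mode, threshold or control. Calling settings and depth set how many peaks a list holds and how wide they are, so numbers from different lists do not measure the amount of a mark.

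Peaks were placed by midpoint, and covered bases were counted after merging. The window was compared with the rest of chromosome 18 inside each library by two-sided exact sign-flip permutation tests, and groups of libraries by two-sided exact permutation tests, with the smallest p of 0.125 for 4 libraries, 0.333 for 2 against 2 and 0.133 for 4 against 2. No test here can pass 0.05. Of 28 pairs of lists none shared more than 1 identical peak, and every list was counted as 1 sample. Named regions were all H3K9me3 regions held by 4 libraries, the 15 widest H3K27me3 regions held by at least 2, all places of overlap and the closest pair. Other regions were named after their values were seen: those gained or lost, and 2 kept regions at the right end of gamma. The code was tested on simulated peaks. Alternatives were a minimum width of 500 bp, another placement, merging over 1 kb, a cover of 50%, all autosomes as comparison, equal numbers of widest peaks, each MACS2 version alone and leaving out each library. Those by MACS2 version, those of the comparison among clusters, and the results on the share of the chromosome and on coverage of kept regions were chosen after seeing the data. Computation used Python 3.11.15, NumPy 2.4.6, SciPy 1.17.1, pandas 2.3.3 and Matplotlib 3.10.9. No sequence is shown, and no mm9 annotation was used here.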

Additional observations from a re-analysis of the deposited data

Results flagged for a closer look

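Peak number, covered share, median width and median gap in the 4 H3K9me3 libraries were screened for a library far from the other 3. This gave 24 values, over the window, the stretch before alpha, the 3 clusters and the rest of the chromosome. Chance marks about 1 in 20 such groups, and 7 of 24 were marked, all for replicate 1. All 7 were medians of width or gap, and no peak number or covered share was marked. Its median width was 2799 bp in the window, 6268 bp in alpha, 1614.5 bp in beta and 1797 bp on the rest of chromosome 18, each above the other replicates. Its median gap between peaks was 63383.5 bp in the window, 89352 bp in alpha and 70434 bp in gamma, again the highest of the group. The alpha values rest on its 2 peaks and the gamma gap on its 3. Replicate 1 is also the H3K9me3 library whose notes name MACS2 2.0.10, and the part of that version in these values was not tested.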

How the results depend on the processing

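Over 13 results and 104 alternatives, 98 values kept the direction of the main value or, for counts and distances, stayed near it, 4 moved and 2 reversed. As no test can pass the threshold, this is no sign of stability. The difference in H3K9me3 median width, 178 bp, reversed to -96.8 bp without replicate 1 (range -96.8 to 311 bp when 1 library was left out) and to -132.75 bp in alpha, beta and gamma alone. With peaks of at least 500 bp it rose to 363 bp (exact sign-flip p = 0.125). The 13 H3K9me3 regions held by all 4 libraries became 5 when each library had to cover 50% of a region, 39 when 2 libraries sufficed, and between 13 and 24 when 1 library was left out, with 24 without replicate 1. The distance of 13426.5 bp became 24092.5 bp against H3K9me3 regions held by all 4 libraries. The tamoxifen difference in peak number was between 3 and 46 over its alternatives and that in covered bases between -48.8 and -18.3 kb. With the replicate number as a block, the differences stayed at -33.5 kb, 24.5 peaks, -3.39 and -11.4 percentage points, each with an exact sign-flip p of 0.5, the only value 2 pairs in the same direction can give. The labels state no pairing, and same-numbered H3K27me3 libraries deviated together over 4841 kept regions with a correlation of 0.352. Same-numbered H3K27me3 libraries also share a MACS2 version, so a pairing and the version cannot be told apart. Depth is unknown, so a missing peak does not show that a mark is absent.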
